A study of Mus musculus with 18 samples.

Results

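Vesicle fusion was followed through 52 protein-coding genes in RNA sequencing of the mouse nucleus accumbens, the ventral striatum. They were every protein-coding gene, of 22703 such genes among 37980 in all, whose symbol is Syt, Stx, Stxbp, Vamp or Snap followed by a number. This gave 17 synaptotagmins, 15 syntaxins, 8 syntaxin-binding genes, 7 vesicle-associated membrane proteins (VAMPs) and 5 Snap genes, chosen by symbol; the choice of these families was made with earlier results of these data known. The symbol takes in Snap91, which encodes the clathrin adaptor AP180 and no SNARE protein.

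The 18 samples formed 6 groups of 3, all from mice on a C57BL/6 background. Mice labelled Rgs9-2KO were given desipramine or saline after spared nerve injury (SNI), a cut of sciatic nerve branches that leaves lasting neuropathic pain, or were naive. Mice labelled Rgs9-2WT formed the same 3 groups. Desipramine, a tricyclic antidepressant, was injected into the peritoneum at 15 mg/kg, 2 times a day. The labels mention no injection for naive mice, so injury and saline injections cannot be told apart. The sources used here do not give the mice's age, how the knockout was made or whether tissue was pooled. The study asked how the striatal signalling regulator RGS9-2 bears on antidepressant action in neuropathic pain.

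The authors deposited 7 pairwise tables from Cuffdiff, with 1 level per gene and group in FPKM (fragments per length of transcript, scaled to the mapped fragments) and none per sample. The spread between samples is therefore known only through Cuffdiff's test statistic, from which the standard errors (±) were recovered. These errors are wide beside Cuffdiff's own p-values: read with a normal p they give fewer calls, as described below. A gene was called where Cuffdiff tested it and its q, the p-value adjusted over all genes of the table, was at or below 0.05. Levels over all 6 groups were set across the separately normalized tables by 1 factor per table and only describe. Depth per sample is unknown. The titles give every group its own sequencing lane, and group and lane cannot be told apart.

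Some features of the groups stood apart before any fusion gene was considered. Rgs9, the gene in the labels, went against them: in the authors' deposited table for naive mice it had 217 FPKM in labelled-KO naive mice, against 120.3 FPKM in labelled-WT naive mice (log2 fold change 0.85 ± 0.42, q = 0.0443). It was also higher in the injured groups labelled KO, with 168 FPKM in the labelled-KO desipramine group, against 114 FPKM in the labelled-WT desipramine group (log2 fold change 0.55 ± 0.19, q = 0.00818) after desipramine and 177 FPKM in the labelled-KO saline group, against 104 FPKM in the labelled-WT saline group (log2 fold change 0.77 ± 0.27, q = 0.0170) after saline in the authors' deposited tables. The groups are therefore called labelled KO and labelled WT, and each direction between them rests on those labels. All 13 markers of medium spiny neurons, the main cells of the region, were above 1 FPKM on average, with Ppp1r1b at 630.4 to 1031 FPKM and Drd2 at 51.2 to 82.99 FPKM. Rgs9 itself is among these 13. Markers of cells from outside the region varied between groups. Summed over 10 cortical excitatory neuron markers the level was 64.9, 116 and 75.7 FPKM in the desipramine, saline and naive groups labelled KO, against 119, 76.1 and 301 FPKM in those labelled WT. Summed over 10 choroid plexus markers it was 438, 618 and 679.6 FPKM in the desipramine, saline and naive groups labelled KO, against 28.1, 119 and 1452 FPKM in those labelled WT. Single genes weighed heavily in both sums: in labelled-WT naive mice the cortical marker Slc17a7 had 226 FPKM and the choroid plexus marker Ttr 1390 FPKM. In whole tissue, fewer cells of a type and less RNA per cell cannot be told apart.

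Transmitter leaves a nerve terminal when a vesicle fuses with the plasma membrane. A VAMP in the vesicle membrane zips together with a syntaxin and a SNAP protein in the plasma membrane, and the resulting SNARE complex pulls the membranes into contact. Syntaxin-binding proteins of the Munc18 type hold and guide the syntaxin, and synaptotagmins, with their paired C2 domains, couple fusion to calcium. Other syntaxins and VAMPs serve membrane traffic in the Golgi, endosomes and other compartments of every cell.

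The neuronal fusion complex was abundant, and the Snap and VAMP families were each led by 1 gene. Snap25, the neuronal plasma membrane SNAP protein, averaged 882 FPKM over the 6 groups, 77.2% of the summed level of the Snap genes. Vamp2, the main VAMP of synaptic vesicles in the forebrain, averaged 425 FPKM and made up 75.7% of the VAMPs. The synaptotagmins were shared out more evenly. Syt1, the fast calcium sensor of most forebrain synapses, averaged 257 FPKM, beside 229 FPKM for Syt11, a member that does not act as a fast calcium sensor, and 122 FPKM for Syt5.

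Most members kept a narrow range of levels. Of the 52 genes, 46 had at least 1 FPKM in all 6 groups, and in 33 of these the highest group was less than 1.5 times the lowest. Only Stx1a, Syt10 and Syt17 had a highest group over 2 times the lowest, at 2.87, 2.61 and 2.41 times. The labelled-WT naive group was the highest for 23 of the 46 and the lowest for 11. The matching counts over all genes are not given here, so these are not shown to be particular to the members. Cuffdiff tested 47 members in all 7 tables, Syt8 and Stxbp3b in some, and Stx11, Stx19 and Vamp7 in none. Vamp7, a VAMP of late endosomes and lysosomes, was listed at 0 in every group; the tables place it on an unplaced contig, at a locus shared with another gene, so the 0 does not show that it is absent. Stxbp3b is a near-identical copy of Stxbp3a, so the split of reads between them is uncertain. The locus that the tables give was shared with another gene for 22 members.

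**Figure D1:**
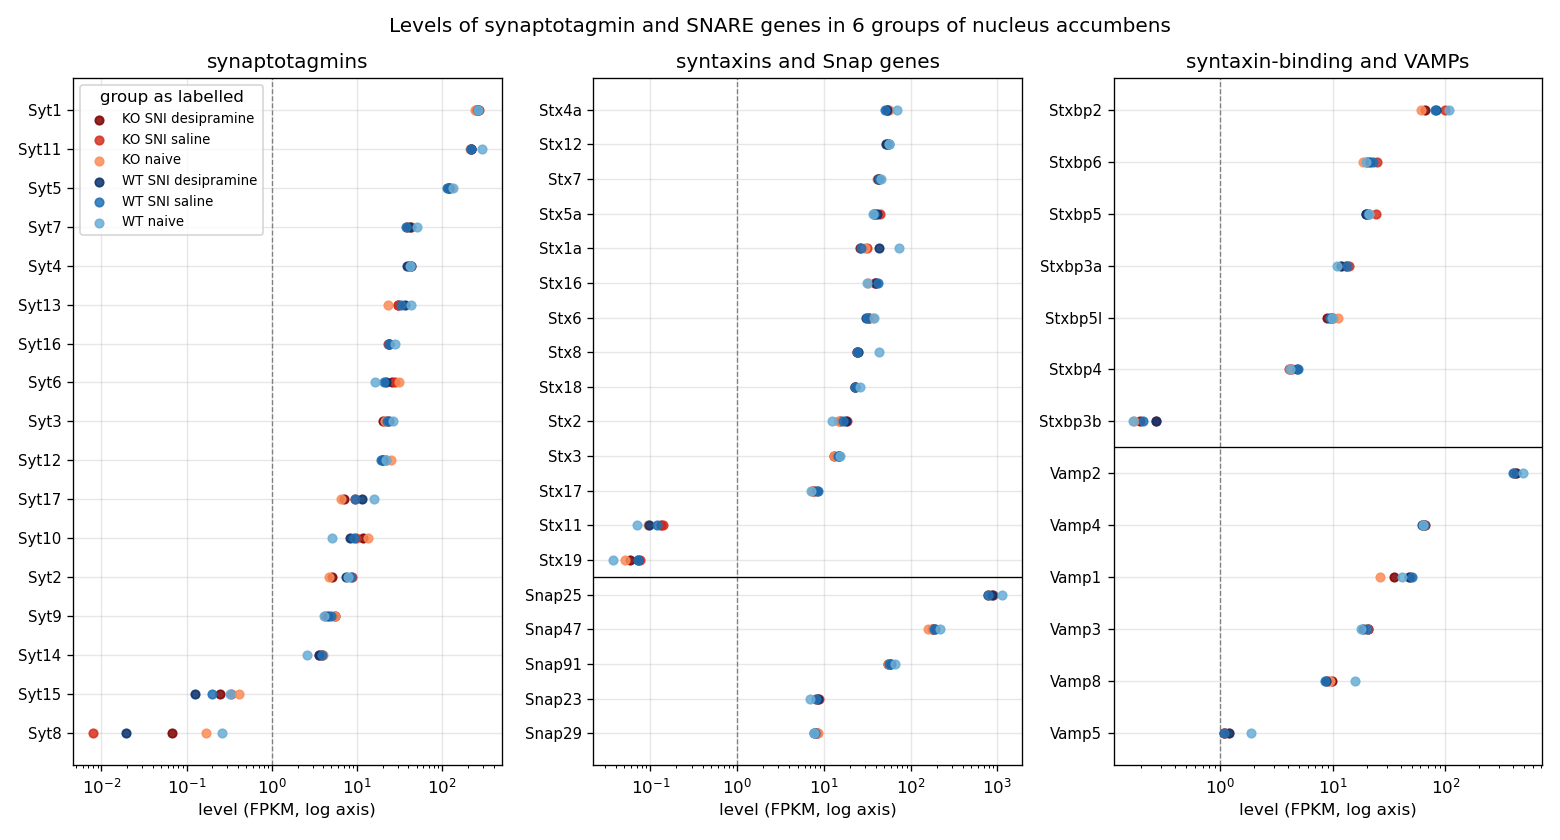
Level in FPKM (log axis) of the members in the 6 groups, ordered by mean level within its family, with 1 point per group; the dashed line marks 1 FPKM. Snap25, Vamp2 and Syt1 lead their families, and for most genes the 6 points nearly coincide, with Stx1a, Syt10 and Syt17 spread the most among genes above the line; Vamp7, and the group where Syt8 is listed at 0, are not drawn.

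Below the leading genes, each family held members of lower level. Among the syntaxins these were Stx4a at 56.6 FPKM on average, a plasma membrane syntaxin of many cell types, then Stx12 at 54.04 FPKM and Stx7 at 42.98 FPKM, both of endosomes, and Stx5a at 39.7 FPKM, of the Golgi. Stx11, known from lymphocytes, averaged 0.109 FPKM, and Stx19 0.0611 FPKM. Snap47 averaged 186 FPKM, Snap23, the widely expressed counterpart of Snap25, 8.17 FPKM, and Snap29 8.05 FPKM. Vamp4, of the trans-Golgi network, averaged 63.97 FPKM, Vamp3, of recycling endosomes, 19.5 FPKM, Vamp8, of endosomes and secretory granules, 10.2 FPKM and Vamp5 1.26 FPKM. Syt7, a slow, high-affinity calcium sensor, averaged 42.4 FPKM, Syt4, an activity-regulated gene of dense-core vesicles, 41.4 FPKM, Syt3 22.8 FPKM, Syt12 21.3 FPKM and Syt9 4.81 FPKM. Syt15 and Syt8 were the lowest synaptotagmins at 0.272 and 0.0863 FPKM. Stxbp5, or tomosyn, which holds back SNARE assembly, averaged 21.01 FPKM, and Stxbp6 21.2 FPKM.

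None of Syt1, Snap25 and Vamp2, the leading genes of their families, was called in any of the 7 comparisons. In the authors' deposited tables their log2 fold changes lay between -0.51 and -0.13 for labelled KO over labelled WT in naive mice, where the lowest q was 0.750, and between -0.53 and 0.0017 for injury over naive in labelled-WT mice, where the lowest q was 0.736. In the other 5 comparisons of the authors' deposited tables they lay between -0.17 and 0.17. The lowest unadjusted p among the 3 genes in the authors' deposited tables was 0.0996. The precision limits this. Snap25 after injury had 788 FPKM in the labelled-WT saline group, against 1138 FPKM in labelled-WT naive mice in the authors' deposited table (log2 fold change -0.53 ± 0.56, q = 0.736). The recovered standard error is as large as the change, but it is wide beside Cuffdiff's own unadjusted p of 0.0996 for this comparison.

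Of the 52 genes, 8 were called in at least 1 comparison and 44 in none. The share of all genes called in at least 1 comparison is not given here, and shares are set beside the members for each comparison alone. In naive mice labelled KO against naive mice labelled WT, 5 of 48 tested members were called in the authors' deposited table, where 1.44% of all tested genes were. Of these, Syt10 and Syt6 were higher and Stx1a, Syt17 and Syt13 lower in labelled-KO mice. After injury and desipramine, 5 of 48 were called between the labels in the authors' deposited table, against 0.859% of all genes, with Syt10 higher and Stx1a, Syt17, Syt2 and Vamp1 lower in the labelled-KO group. After injury and saline, 0 of 48 were called in the authors' deposited table, where 0.329% of all genes were, and 2 members had an unadjusted p under 0.05, where 2.9% of all genes had.

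Injury with saline gave 1 called member of 48 in labelled-WT mice, Stx1a, which fell, where 1.42% of all genes in the authors' deposited table were called. In labelled-KO mice it gave 3 of 47, Syt2, Vamp1 and Stxbp2, all of which rose, where 0.459% of all genes in the authors' deposited table were called. Desipramine over saline gave 0 of 48 in labelled-WT mice, against 0.202% of all genes in the authors' deposited table; 1 member, Stx1a, had an unadjusted p under 0.05, where 1.79% of all genes had. In labelled-KO mice desipramine gave 2 of 48, Syt2 and Stxbp2, both of which fell, against 1.05% of all genes in the authors' deposited table. The comparisons share groups: each saline group enters 3 of them and each naive and desipramine group 2, so their counts are not independent. The calls rest on Cuffdiff's own p-values: with a normal p from the deposited test statistic instead, 1 of these 16 calls remained, Stxbp2 after injury in labelled-KO mice.

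**Figure D2:**
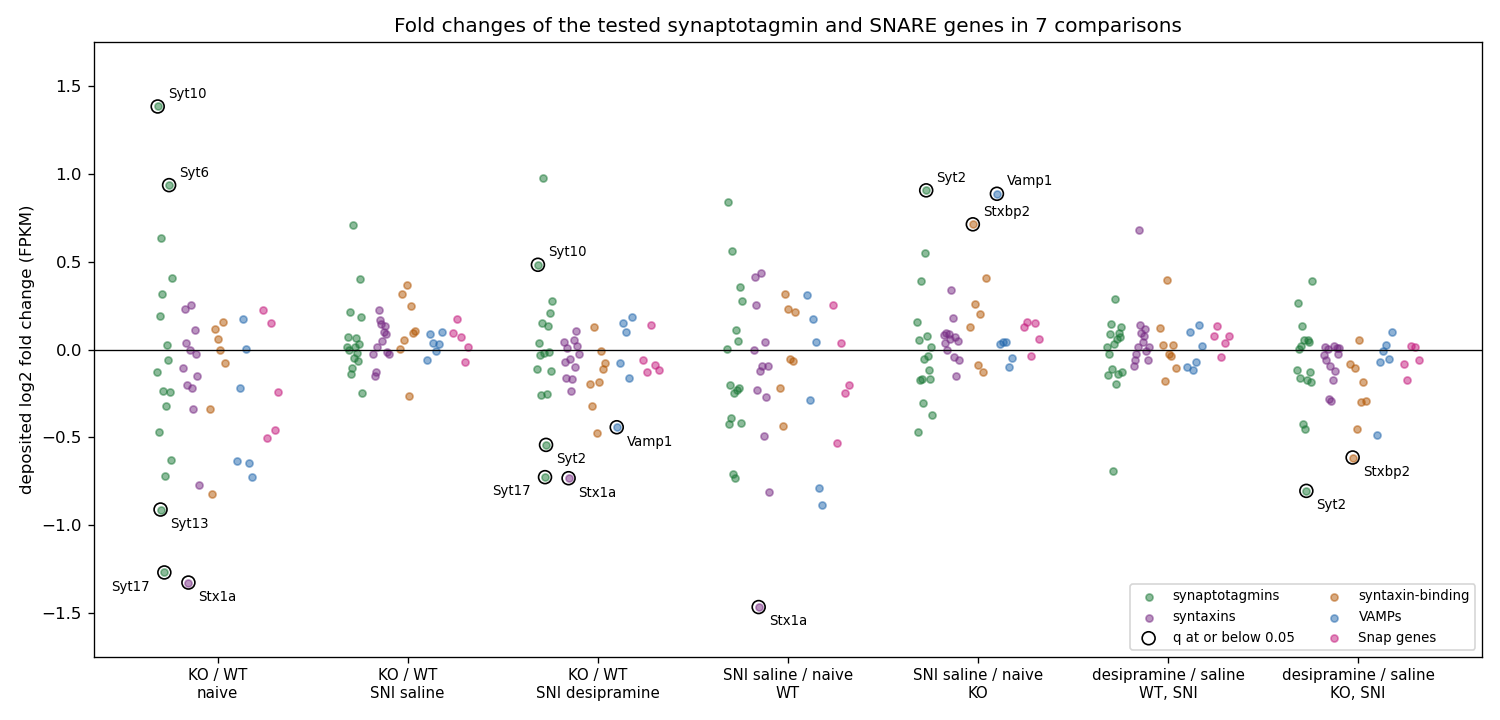
Deposited log2 fold change of each tested member in the 7 comparisons, first-named group over second, with 1 point per gene coloured by family; circles mark genes called at q at or below 0.05. Most points lie close to 0, the labelled-KO over labelled-WT comparison of naive mice and injury in labelled-WT mice spread widest, and no point is circled for the labels after saline or for desipramine in labelled-WT mice.

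The whole set shifted little. The median log2 fold change of the tested members in the authors' deposited tables was -0.12 for the labels in naive mice, against -0.026 over all tested genes. In the authors' deposited tables the other medians were 0.042 for the labels after saline (all genes 0.0031) and -0.065 for the labels after desipramine (all genes -0.007). For injury they were -0.11 in labelled-WT mice (all genes -0.026) and 0.05 in labelled-KO mice (all genes 0.0057), and for desipramine 0.024 in labelled-WT mice (all genes 0.0073) and -0.065 in labelled-KO mice (all genes -0.014), all from the authors' deposited tables.

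Stx1a, a syntaxin of the neuronal plasma membrane, was the syntaxin that moved (NCBIM37 chromosome 5, 135499352 to 135526970). Stx1a stood at 26.01 FPKM with injury and desipramine, 31.6 FPKM with injury and saline and 29.7 FPKM in naive mice of the labelled-KO groups, against 43.3, 26.97 and 74.6 FPKM for the same 3 conditions in the labelled-WT groups. The labelled-WT naive group was the highest, the labelled-WT desipramine group came next, and the other 4 lay close together. In the authors' deposited table for naive mice it had 29.1 FPKM in labelled-KO naive mice, against 73.1 FPKM in labelled-WT naive mice (log2 fold change -1.33 ± 0.54, q = 0.0134). After desipramine the authors' deposited table gave 26.3 FPKM in the labelled-KO desipramine group, against 43.8 FPKM in the labelled-WT desipramine group (log2 fold change -0.73 ± 0.23, q = 0.00818). Injury in labelled-WT mice brought it to 26.8 FPKM in the labelled-WT saline group, against 74.2 FPKM in labelled-WT naive mice (log2 fold change -1.47 ± 0.59, q = 0.00766) in the authors' deposited table. With desipramine in labelled-WT mice the authors' deposited table gave 43.9 FPKM in the labelled-WT desipramine group, against 27.3 FPKM in the labelled-WT saline group (log2 fold change 0.68 ± 0.30, q = 0.0702), which missed the threshold. Between the labels after saline the authors' deposited table gave 31.7 FPKM in the labelled-KO saline group, against 27.1 FPKM in the labelled-WT saline group (log2 fold change 0.23 ± 0.37, q = 0.99995).

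The other 14 syntaxins were not called in any comparison. Stx8, an endosomal syntaxin, and Vamp8, which pairs with it on endosomes, both had their highest level in the labelled-WT naive group. Stx8 stood at 24.2 FPKM with injury and desipramine, 24.04 FPKM with injury and saline and 25.04 FPKM in naive mice of the labelled-KO groups, against 24.6, 24.4 and 42.8 FPKM for the same 3 conditions in the labelled-WT groups. Vamp8 had 9.80 FPKM with injury and desipramine, 9.15 FPKM with injury and saline and 9.48 FPKM in naive mice of the labelled-KO groups, against 8.64, 8.51 and 15.7 FPKM for the same 3 conditions in the labelled-WT groups. The other 5 groups were alike for both genes, and injury in labelled-WT mice gave a log2 fold change of -0.81 ± 0.43 (q = 0.384) for Stx8 and a log2 fold change of -0.89 ± 0.59 (q = 0.181) for Vamp8 in the authors' deposited table, so neither passed. Stx2, another plasma membrane syntaxin, ran the other way without a call, at 16.8 FPKM in the labelled-WT saline group, against 12.4 FPKM in labelled-WT naive mice (log2 fold change 0.44 ± 0.67, q = 0.947) for injury over naive in labelled-WT mice in the authors' deposited table. The deposited fold change of Stx16 in 6 tables and of Stx5a in 3 differed from the ratio of its FPKM values, and those have no standard error here.

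Stxbp2, a Munc18 protein known for granule release in platelets, mast cells and cytotoxic lymphocytes, moved in labelled-KO mice (NCBIM37 chromosome 8, 3630955 to 3643644). Stxbp2 stood at 65.3 FPKM with injury and desipramine, 99.98 FPKM with injury and saline and 61.03 FPKM in naive mice of the labelled-KO groups, against 81.8, 80.2 and 108 FPKM for the same 3 conditions in the labelled-WT groups. The labelled-WT naive and labelled-KO saline groups were the highest, and the labelled-KO naive and desipramine groups the lowest. Injury in labelled-KO mice gave 98.98 FPKM in the labelled-KO saline group, against 60.4 FPKM in labelled-KO naive mice (log2 fold change 0.71 ± 0.18, q = 0.0344) in the authors' deposited table. Desipramine in labelled-KO mice gave 65.5 FPKM in the labelled-KO desipramine group, against 100.4 FPKM in the labelled-KO saline group (log2 fold change -0.61 ± 0.17, q = 0.0322) in the authors' deposited table. In labelled-WT mice, injury gave a log2 fold change of -0.43 ± 0.32 (q = 0.862) and desipramine a log2 fold change of 0.028 ± 0.16 (q = 0.99995) in the authors' deposited tables, neither of them called. The naive groups already differed more between the labels, at a log2 fold change of -0.82 ± 0.32 (q = 0.199) in the authors' deposited table, also not called. None of the 7 other syntaxin-binding genes was called. Stxbp5 had 24.3 FPKM in the labelled-KO saline group, against 20.5 FPKM in the labelled-WT saline group (log2 fold change 0.25 ± 0.35, q = 0.99995) for labelled KO over labelled WT after saline in the authors' deposited table.

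Vamp1, the vesicle SNARE of neuromuscular and many hindbrain and spinal terminals, rose with Stxbp2 and Syt2 after injury in labelled-KO mice (NCBIM37 chromosome 6, 125165569 to 125194561, a locus that the tables also give to Cd27 and Tapbpl). Vamp1 stood at 34.9 FPKM with injury and desipramine, 48.8 FPKM with injury and saline and 26.4 FPKM in naive mice of the labelled-KO groups, against 47.4, 50.9 and 41.04 FPKM for the same 3 conditions in the labelled-WT groups. The labelled-KO naive group was the lowest and the labelled-KO desipramine group the second lowest, while the labelled-KO saline group lay beside the injured labelled-WT groups. Injury in labelled-KO mice gave 48.3 FPKM in the labelled-KO saline group, against 26.1 FPKM in labelled-KO naive mice (log2 fold change 0.89 ± 0.23, q = 0.0128) in the authors' deposited table. With desipramine in labelled-KO mice it had 34.98 FPKM in the labelled-KO desipramine group, against 48.99 FPKM in the labelled-KO saline group (log2 fold change -0.49 ± 0.22, q = 0.0624) in the authors' deposited table, just outside the threshold. The labels after desipramine gave 35.3 FPKM in the labelled-KO desipramine group, against 47.99 FPKM in the labelled-WT desipramine group (log2 fold change -0.44 ± 0.17, q = 0.00818) in the authors' deposited table. As a share of Vamp2 its level was 8.65%, 11.5% and 6.36% in the desipramine, saline and naive groups labelled KO, against 11.1%, 12.8% and 8.49% in those labelled WT. The 5 other tested VAMPs were called nowhere, and Vamp3 ranged over 17.7 to 20.5 FPKM.

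The Snap genes held no call in any comparison, and 0 had an unadjusted p under 0.05 in the authors' deposited tables. All 5 were tested in each comparison, where 0.202% to 1.44% of all genes were called. At an unadjusted p under 0.05 the share of all genes was 2.9% for the labels after saline and 1.79% for desipramine in labelled-WT mice. It is not given here for the other comparisons. With 5 genes, 0 does not set the family apart. Snap25 had 793, 894 and 804 FPKM in the desipramine, saline and naive groups labelled KO, against 868, 792 and 1143 FPKM in those labelled WT, with the labelled-WT naive group the highest. Snap23, as a share of Snap25, was 1.05%, 0.986% and 1.003% in the desipramine, saline and naive groups labelled KO, against 0.999%, 1.04% and 0.605% in those labelled WT. The lowest q of a Snap gene in any of the authors' deposited tables was 0.639.

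Syt2, the fast calcium sensor that takes the place of Syt1 in much of the hindbrain, the spinal cord and fast-spiking inhibitory terminals, had the same order of labelled-KO groups as Vamp1 (NCBIM37 chromosome 1, 136605877 to 136649726). Syt2 stood at 5.05 FPKM with injury and desipramine, 8.82 FPKM with injury and saline and 4.71 FPKM in naive mice of the labelled-KO groups, against 7.36, 8.42 and 7.78 FPKM for the same 3 conditions in the labelled-WT groups. Injury in labelled-KO mice gave 8.73 FPKM in the labelled-KO saline group, against 4.65 FPKM in labelled-KO naive mice (log2 fold change 0.91 ± 0.24, q = 0.0128) in the authors' deposited table. Desipramine in labelled-KO mice gave 5.06 FPKM in the labelled-KO desipramine group, against 8.85 FPKM in the labelled-KO saline group (log2 fold change -0.81 ± 0.23, q = 0.00739) in the authors' deposited table. The labels after desipramine gave 5.11 FPKM in the labelled-KO desipramine group, against 7.45 FPKM in the labelled-WT desipramine group (log2 fold change -0.54 ± 0.19, q = 0.00818) in the authors' deposited table. In labelled-WT mice, injury gave a log2 fold change of 0.11 ± 0.44 (q = 0.999) and desipramine a log2 fold change of -0.19 ± 0.22 (q = 0.99995) in the authors' deposited tables. Syt2 remained minor beside Syt1, at 2.05%, 3.31% and 1.96% in the desipramine, saline and naive groups labelled KO, against 2.77%, 3.20% and 2.96% in those labelled WT.

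Syt10 and Syt6 were the synaptotagmins that were higher in labelled-KO mice. Syt10, known in mouse olfactory bulb neurons as a calcium sensor for secretion of a growth factor, lies at NCBIM37 chromosome 15, 89612824 to 89672291. Syt10 stood at 11.6 FPKM with injury and desipramine, 9.67 FPKM with injury and saline and 13.4 FPKM in naive mice of the labelled-KO groups, against 8.30, 9.18 and 5.13 FPKM for the same 3 conditions in the labelled-WT groups. In the authors' deposited table for naive mice it had 13.1 FPKM in labelled-KO naive mice, against 5.02 FPKM in labelled-WT naive mice (log2 fold change 1.38 ± 0.45, q = 0.00761), and after desipramine the authors' deposited table gave 11.7 FPKM in the labelled-KO desipramine group, against 8.40 FPKM in the labelled-WT desipramine group (log2 fold change 0.48 ± 0.21, q = 0.0261). Syt6, known from the acrosome reaction of sperm, lies at NCBIM37 chromosome 3, 103379154 to 103449992, a locus shared in the tables with the pseudogene Atg4a-ps. Syt6 stood at 25.4 FPKM with injury and desipramine, 27.7 FPKM with injury and saline and 31.2 FPKM in naive mice of the labelled-KO groups, against 22.00, 20.9 and 16.3 FPKM for the same 3 conditions in the labelled-WT groups. All 3 labelled-KO groups lay above all 3 labelled-WT groups for Syt10 and for Syt6. In naive mice the authors' deposited table gave 30.6 FPKM in labelled-KO naive mice, against 15.99 FPKM in labelled-WT naive mice (log2 fold change 0.94 ± 0.40, q = 0.0217) for Syt6. After saline it had 27.8 FPKM in the labelled-KO saline group, against 21.04 FPKM in the labelled-WT saline group (log2 fold change 0.40 ± 0.24, q = 0.497) in the authors' deposited table and was not called.

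Syt17 and Syt13 were lower in labelled-KO naive mice. Syt17, also known as the B/K protein, lies at NCBIM37 chromosome 7, 125525370 to 125587066. Syt17 stood at 6.97 FPKM with injury and desipramine, 9.54 FPKM with injury and saline and 6.51 FPKM in naive mice of the labelled-KO groups, against 11.5, 9.45 and 15.7 FPKM for the same 3 conditions in the labelled-WT groups. The labelled-WT naive group was the highest and the labelled-KO naive and desipramine groups the lowest. In the authors' deposited table for naive mice it had 6.38 FPKM in labelled-KO naive mice, against 15.4 FPKM in labelled-WT naive mice (log2 fold change -1.27 ± 0.46, q = 0.0181), and after desipramine the authors' deposited table gave 7.05 FPKM in the labelled-KO desipramine group, against 11.7 FPKM in the labelled-WT desipramine group (log2 fold change -0.73 ± 0.23, q = 0.00818). Syt13, whose C2 domains lack the residues that bind calcium, lies at NCBIM37 chromosome 2, 92755255 to 92796215. Syt13 stood at 30.2 FPKM with injury and desipramine, 29.8 FPKM with injury and saline and 22.8 FPKM in naive mice of the labelled-KO groups, against 36.2, 32.8 and 42.9 FPKM for the same 3 conditions in the labelled-WT groups. In the authors' deposited table for naive mice it had 22.3 FPKM in labelled-KO naive mice, against 42.00 FPKM in labelled-WT naive mice (log2 fold change -0.91 ± 0.39, q = 0.0217).

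The other calcium-sensing and vesicle synaptotagmins named above were not called in any comparison. Syt7 ranged over 37.98 to 50.7 FPKM, Syt4 over 38.7 to 42.8 FPKM, Syt3 over 19.9 to 26.7 FPKM, Syt11 over 211 to 293 FPKM, Syt12 over 19.01 to 24.9 FPKM and Syt9 over 4.11 to 5.53 FPKM. Syt14 was highest in labelled-KO naive mice at 4.01 FPKM, against 2.59 FPKM in labelled-WT naive mice, and in the authors' deposited table it had a log2 fold change of 0.63 ± 0.59 (q = 0.550).

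**Figure D3:**
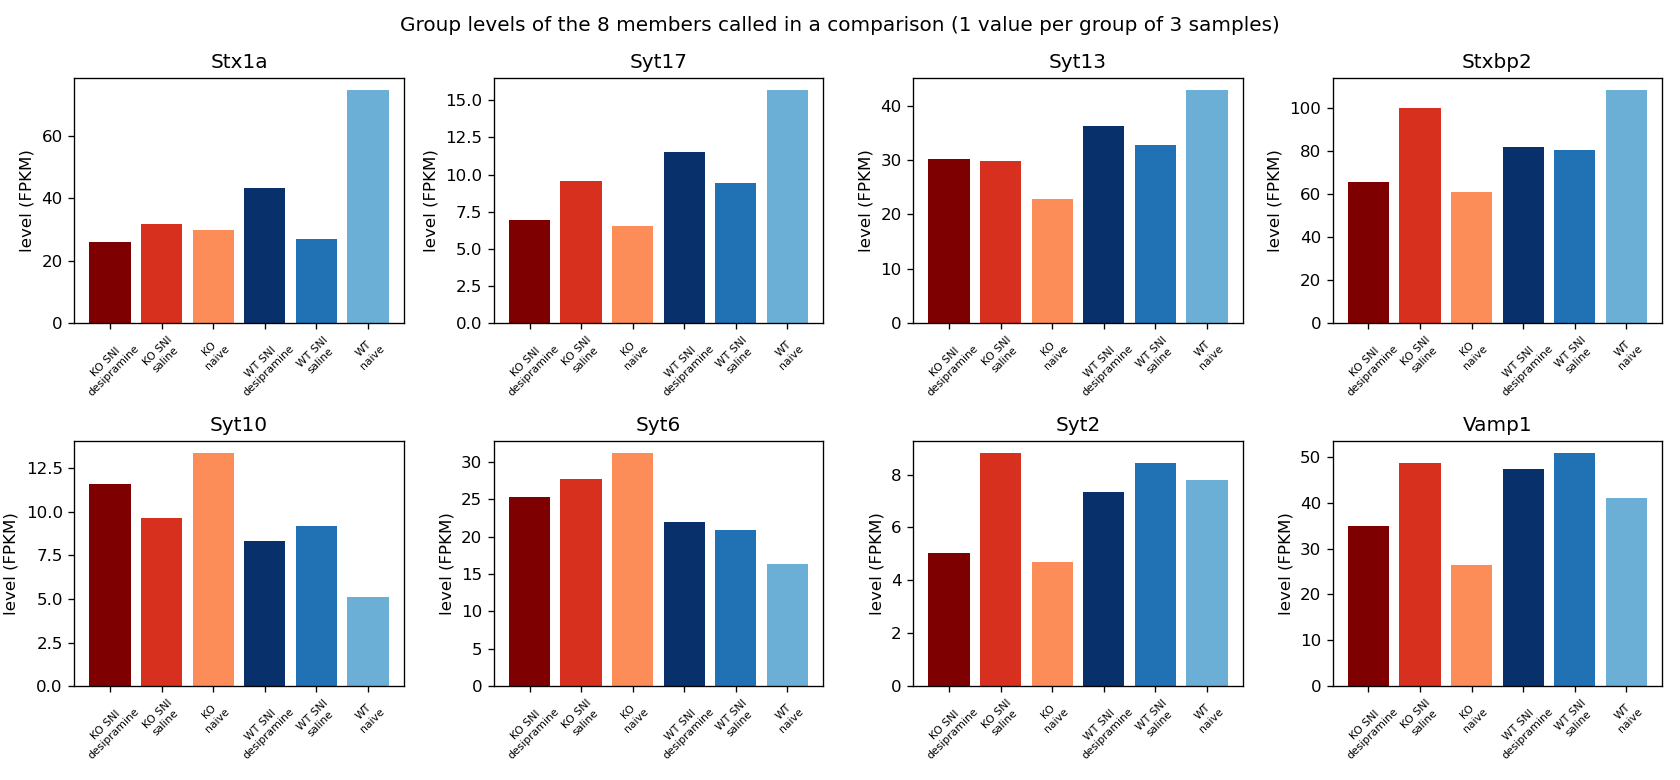
Level in FPKM of the 8 called members, 1 bar per group (labelled KO in red shades left of labelled WT in blue shades; no error bar, since only 1 value per group is given). Stx1a, Syt17, Syt13 and Stxbp2 are highest in labelled-WT naive mice, Syt10 and Syt6 are lowest there, and Syt2 and Vamp1 are lowest in labelled-KO naive mice.

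The promoters of 4 of these genes are printed because Syt2 and Vamp1 both rose after injury in labelled-KO mice and Stx1a and Syt10 differed in opposite directions in naive mice. Each runs 5′ to 3′ from 250 bases before to 50 bases after a transcription start in RefSeq on GRCm38.p6, a later build than that of the loci above. Syt2 has starts listed at 2 places. Capitals mark letters of the GC box GGGCGG or of GGACAG, one side of the RE1 element through which the repressor REST restrains neuronal genes, on either strand.
Syt2, upstream start, chr1:134646362-134646661, forward strand: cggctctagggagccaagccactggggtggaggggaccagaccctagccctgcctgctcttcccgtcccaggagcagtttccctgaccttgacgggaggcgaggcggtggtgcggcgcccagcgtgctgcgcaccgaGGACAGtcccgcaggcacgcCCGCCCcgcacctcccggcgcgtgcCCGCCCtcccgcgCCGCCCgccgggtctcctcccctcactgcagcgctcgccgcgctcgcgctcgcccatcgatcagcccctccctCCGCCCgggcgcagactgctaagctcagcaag
Syt2, downstream start, chr1:134709050-134709349, forward strand: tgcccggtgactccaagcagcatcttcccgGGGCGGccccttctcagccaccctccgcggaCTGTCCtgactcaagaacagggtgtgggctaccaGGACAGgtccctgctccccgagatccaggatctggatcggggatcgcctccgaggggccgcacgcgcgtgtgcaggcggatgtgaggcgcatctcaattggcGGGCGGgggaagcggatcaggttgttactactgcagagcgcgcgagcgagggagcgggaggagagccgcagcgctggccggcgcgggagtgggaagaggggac
Vamp1, chr6:125215331-125215630, forward strand: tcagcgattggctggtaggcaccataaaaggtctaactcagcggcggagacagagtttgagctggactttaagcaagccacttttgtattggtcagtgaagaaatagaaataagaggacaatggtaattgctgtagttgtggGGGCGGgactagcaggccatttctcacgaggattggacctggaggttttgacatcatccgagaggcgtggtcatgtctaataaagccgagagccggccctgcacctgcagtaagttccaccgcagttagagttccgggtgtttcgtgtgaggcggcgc
Stx1a, chr5:135023232-135023531, forward strand: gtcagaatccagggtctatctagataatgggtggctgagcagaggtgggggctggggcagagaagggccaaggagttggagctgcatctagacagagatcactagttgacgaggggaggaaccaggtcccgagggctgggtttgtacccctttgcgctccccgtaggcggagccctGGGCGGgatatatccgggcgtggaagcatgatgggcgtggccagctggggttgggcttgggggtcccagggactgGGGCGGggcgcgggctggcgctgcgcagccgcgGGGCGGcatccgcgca
Syt10, chr15:89841811-89842110, reverse strand: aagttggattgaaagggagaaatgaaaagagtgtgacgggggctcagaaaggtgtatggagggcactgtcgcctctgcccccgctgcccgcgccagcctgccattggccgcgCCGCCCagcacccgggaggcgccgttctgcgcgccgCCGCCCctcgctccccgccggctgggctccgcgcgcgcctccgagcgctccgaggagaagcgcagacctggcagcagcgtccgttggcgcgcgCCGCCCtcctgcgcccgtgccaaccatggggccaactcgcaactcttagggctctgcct

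Of the 52 genes, 38 were matched in the promoter table, with 49 promoters. Syt17 was not matched. The GC box was in 33 of the 49, against 35.7% of all 32851 promoters, and GGACAG in 13, against 22.2% of all. The cAMP response element TGACGTCA was in 0 of the 49 (1.79% of all) and the other side of RE1, TTCAGCACC, in 0 (0.371% of all). The median GC content was 64% in the members' promoters and 52.7% over all, so the GC box, made of G and C alone, is not on an equal footing between them. Syt2 carried 4 GC boxes upstream and 2 downstream, Stx1a 3, Syt10 3 and Vamp1 1.

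Whether a response differed between the labels was tested by the difference of 2 log2 fold changes, labelled KO minus labelled WT, with a two-sided normal p adjusted over all genes. For desipramine, 0 of 44 members passed, where 0.145% of 13827 genes did, and 2 had an unadjusted p under 0.05, where 0.861% of all genes had. These were Stxbp2, with a difference of -0.64 ± 0.23 (adjusted p = 0.99999), and Stx1a, with -0.96 ± 0.42 (adjusted p = 0.99999). For injury, 0 of 44 passed, where 0.132% of 13633 genes did, and 4 had an unadjusted p under 0.05, where 1.62% of all genes had. The differences were 1.15 ± 0.37 (adjusted p = 0.529) for Stxbp2, 1.28 ± 0.55 (adjusted p = 0.99998) for Syt17, 1.56 ± 0.68 (adjusted p = 0.99998) for Stx1a and -1.31 ± 0.54 (adjusted p = 0.99998) for Syt10. Syt2 was called in labelled-KO mice alone for both responses, and Vamp1 in labelled-KO mice alone for injury and in neither for desipramine. The differences of Syt2 and Vamp1 were 0.79 ± 0.50 (adjusted p = 0.99998) and 0.58 ± 0.47 (adjusted p = 0.99998) for injury and -0.61 ± 0.32 (adjusted p = 0.99999) and -0.38 ± 0.30 (adjusted p = 0.99999) for desipramine. The median difference was -0.13 over the 44 members and -0.015 over all genes for desipramine, and 0.19 over the 44 members and 0.042 over all genes for injury. This test is cautious: over all genes, the interquartile range of difference over error corresponded to an SD of 0.357 for desipramine and 0.505 for injury, where the normal p assumes 1. A difference between the labels was therefore not shown for any member, which these p-values do not equate with an equal response.

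**Figure D4:**
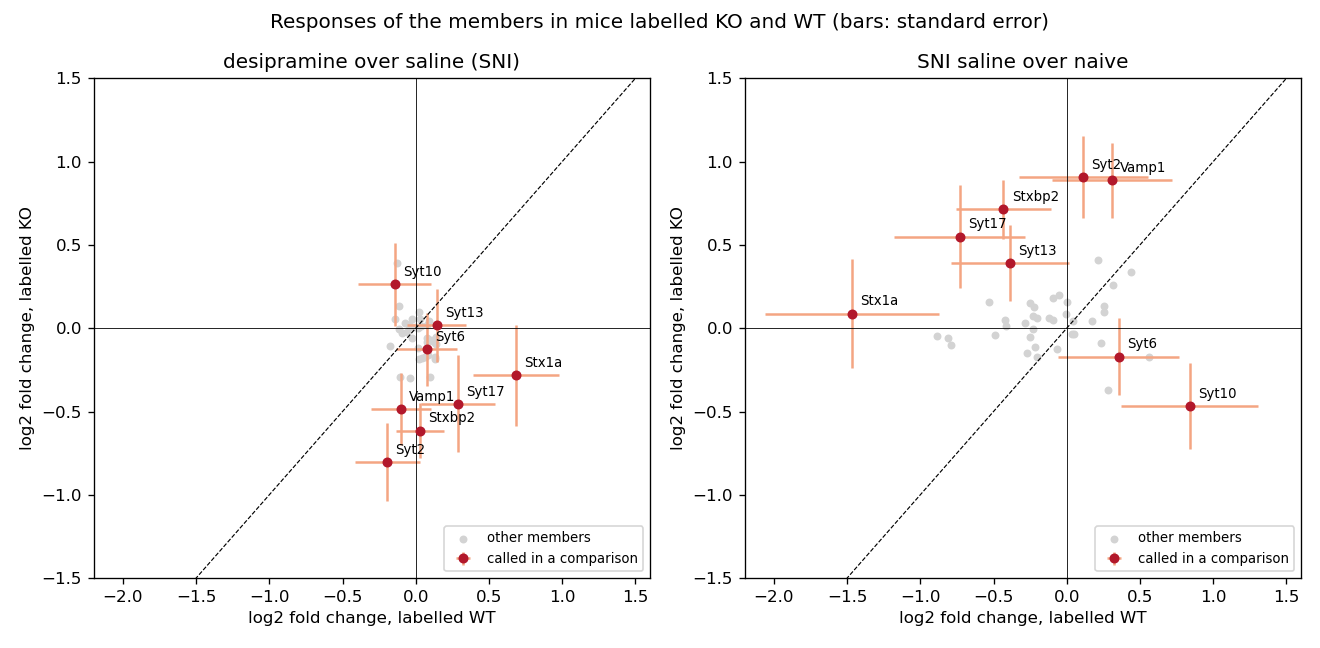
Log2 fold change in labelled-KO mice (vertical) against labelled-WT mice (horizontal) for desipramine over saline (left) and injury with saline over naive (right), 1 point per member, with standard errors for the called members; the dashed line marks equal responses. Stx1a lies far left after injury, Syt2, Vamp1 and Stxbp2 lie high after injury and low after desipramine in labelled-KO mice, and the error bars are wide.

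Other genes of the release machinery were compared by lists. Of 12 further SNAREs of the Golgi, endosomes and endoplasmic reticulum, all tested, Cuffdiff called 0 in any of the 7 comparisons. Per comparison 0.202% to 1.44% of all genes were called, so 0 of 12 does not set these SNAREs apart. Injury in labelled-WT mice had 1 of them at an unadjusted p under 0.05 in the authors' deposited table, and the other 6 comparisons had 0. Of 50 genes of SNARE disassembly, priming and calcium regulation, 47 were tested in each table, and 0 to 3 were called per comparison. In naive mice Unc13c, a priming factor of the Munc13 family, had 20.4 FPKM in labelled-KO naive mice, against 7.84 FPKM in labelled-WT naive mice (log2 fold change 1.38 ± 0.44, q = 0.00761) in the authors' deposited table. Sytl4, a synaptotagmin-like protein, had 1.63 FPKM in labelled-KO naive mice, against 0.312 FPKM in labelled-WT naive mice (log2 fold change 2.39 ± 0.84, q = 0.00761) in the authors' deposited table, and its relative Sytl2 had 5.02 FPKM in labelled-KO naive mice, against 9.15 FPKM in labelled-WT naive mice (log2 fold change -0.87 ± 0.47, q = 0.0464) in the authors' deposited table. Injury in labelled-WT mice gave 2 rises and 1 fall in the authors' deposited table. Unc13c had 19.3 FPKM in the labelled-WT saline group, against 7.97 FPKM in labelled-WT naive mice (log2 fold change 1.28 ± 0.44, q = 0.00766) and Sytl4 had 2.17 FPKM in the labelled-WT saline group, against 0.318 FPKM in labelled-WT naive mice (log2 fold change 2.77 ± 0.87, q = 0.00766), both in the authors' deposited table. Cplx3, a complexin that clamps and helps SNARE complexes, fell to 0.973 FPKM in the labelled-WT saline group, against 4.36 FPKM in labelled-WT naive mice (log2 fold change -2.16 ± 0.62, q = 0.00766) in the authors' deposited table. Sytl4 was also called between the labels after saline, with 0.735 FPKM in the labelled-KO saline group, against 2.19 FPKM in the labelled-WT saline group (log2 fold change -1.58 ± 0.61, q = 0.0170) in the authors' deposited table, and with desipramine in labelled-KO mice, with 2.81 FPKM in the labelled-KO desipramine group, against 0.734 FPKM in the labelled-KO saline group (log2 fold change 1.94 ± 0.58, q = 0.00739) in the authors' deposited table. Otof, the calcium sensor of hair cell synapses, was, like Syt2, highest in the saline group among the labelled-KO groups. Injury there gave 6.48 FPKM in the labelled-KO saline group, against 3.52 FPKM in labelled-KO naive mice (log2 fold change 0.88 ± 0.28, q = 0.0128) in the authors' deposited table, and desipramine gave 3.52 FPKM in the labelled-KO desipramine group, against 6.56 FPKM in the labelled-KO saline group (log2 fold change -0.90 ± 0.26, q = 0.00739) in the authors' deposited table. Between the labels Otof was called in both injured pairs, in opposite directions, with 6.56 FPKM in the labelled-KO saline group, against 3.56 FPKM in the labelled-WT saline group (log2 fold change 0.88 ± 0.30, q = 0.0170) after saline and 3.56 FPKM in the labelled-KO desipramine group, against 5.11 FPKM in the labelled-WT desipramine group (log2 fold change -0.52 ± 0.23, q = 0.00818) after desipramine in the authors' deposited tables.

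Of 26 genes of the vesicle membrane and its recycling, 25 were tested. In naive mice 1 was higher and 1 lower in the authors' deposited table: Sv2c, a vesicle glycoprotein enriched in the basal ganglia, had 25.1 FPKM in labelled-KO naive mice, against 10.5 FPKM in labelled-WT naive mice (log2 fold change 1.27 ± 0.44, q = 0.00761), and Sncb, beta-synuclein, had 135 FPKM in labelled-KO naive mice, against 263 FPKM in labelled-WT naive mice (log2 fold change -0.96 ± 0.41, q = 0.0217). After desipramine Sncb was lower as well, with 151 FPKM in the labelled-KO desipramine group, against 214 FPKM in the labelled-WT desipramine group (log2 fold change -0.50 ± 0.19, q = 0.00818) in the authors' deposited table. In the other 5 comparisons Cuffdiff called 0 of the 25, where 0.202% to 1.42% of all genes were called. Of the 25, 0 to 5 per comparison had an unadjusted p under 0.05 in the authors' deposited tables.

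Markers of other cells moved in comparisons where members were called, but not always alongside those members. In naive mice, 7 of 10 cortical excitatory neuron markers and 5 of 9 interneuron markers were called lower in labelled-KO mice in the authors' deposited table, where Stx1a, Syt17 and Syt13 were lower. Slc17a7, the vesicular glutamate transporter of cortical neurons, had 51.5 FPKM in labelled-KO naive mice, against 222 FPKM in labelled-WT naive mice (log2 fold change -2.11 ± 0.52, q = 0.00761) in the authors' deposited table. Injury in labelled-WT mice, where Stx1a fell, had 7 of the 10 cortical markers called lower in the authors' deposited table, with Slc17a7 at 50.7 FPKM in the labelled-WT saline group, against 225 FPKM in labelled-WT naive mice (log2 fold change -2.15 ± 0.61, q = 0.00766). Slc17a7 rose with desipramine in labelled-WT mice, to 88.5 FPKM in the labelled-WT desipramine group, against 51.5 FPKM in the labelled-WT saline group (log2 fold change 0.78 ± 0.28, q = 0.0495) in the authors' deposited table. All 10 cortical markers were higher with injury and lower with desipramine in labelled-KO mice in the authors' deposited tables. Slc17a7 there had 40.9, 81.5 and 52.5 FPKM in the desipramine, saline and naive groups, while Stx1a had 26.01, 31.6 and 29.7 FPKM. Stx1a was not called in labelled-KO mice for injury or desipramine. In naive mice 4 of 13 medium spiny neuron markers, Rgs9 among them, were called higher in labelled-KO mice in the authors' deposited table, where Syt10 and Syt6 were higher, while Drd2 had 81.4 FPKM in labelled-KO naive mice, against 50.1 FPKM in labelled-WT naive mice (log2 fold change 0.70 ± 0.41, q = 0.134) in the authors' deposited table and was not called. Over the 13 medium spiny neuron markers the summed level was 3157, 3184 and 4219 FPKM in the desipramine, saline and naive groups labelled KO, against 2658, 2605 and 3524 FPKM in those labelled WT. Most of that came from Penk and Ppp1r1b, at 1423 and 1031 FPKM in labelled-WT naive mice. The mean of log2(FPKM + 1) over the 13 was 7.01, 7.03 and 7.48 in the same groups labelled KO, against 6.79, 6.77 and 6.89 in those labelled WT.

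Lists of cells from around the region moved as well, and not always the same way as the neuronal lists. Summed over 10 markers of septal, pallidal, thalamic and hypothalamic neurons the level was 124, 67.8 and 111 FPKM in the desipramine, saline and naive groups labelled KO, against 139, 106 and 65.1 FPKM in those labelled WT. Summed over 5 ependymal markers it was 48.7, 19.7 and 33.05 FPKM in the desipramine, saline and naive groups labelled KO, against 31.7, 30.9 and 24.3 FPKM in those labelled WT. In naive mice, 2 of the 10 septal and hypothalamic markers were called higher in labelled-KO mice in the authors' deposited table, and 0 of 10 choroid plexus markers were called, with 2 at an unadjusted p under 0.05 (median log2 fold change -0.72). After saline, where Cuffdiff called no member between the labels, 6 of 10 choroid plexus markers and 1 of 13 medium spiny neuron markers were called higher and 4 of 10 septal and hypothalamic markers lower in the authors' deposited table. The medium spiny neuron marker called was Rgs9, the gene in the labels. After desipramine, between the labels, 8 of 10 choroid plexus markers (median 2.35), 1 of 5 ependymal and 1 of 13 medium spiny neuron markers were called higher in the authors' deposited table, with Rgs9 again the medium spiny neuron marker. For the same pair in the authors' deposited table, 3 of the 10 cortical, 4 of the 9 interneuron and 2 of the 10 septal and hypothalamic markers were called lower.

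Injury in labelled-WT mice also had 8 of 10 choroid plexus markers (median -2.72) and 3 of 9 interneuron markers called lower and 2 of 10 septal and hypothalamic markers called higher in the authors' deposited table. Injury in labelled-KO mice, where Syt2, Vamp1 and Stxbp2 rose, had 2 interneuron markers, 1 cortical marker and 1 septal or hypothalamic marker called higher in the authors' deposited table. For the same pair in the authors' deposited table, 4 of 13 medium spiny neuron, 3 of 10 septal and hypothalamic and 1 of 5 ependymal markers were called lower. Desipramine in labelled-KO mice, where Syt2 and Stxbp2 fell, had 5 of 5 ependymal markers (median 1.495) and 6 of 10 septal and hypothalamic markers (median 1.03) called higher in the authors' deposited table, beside 3 of 10 cortical markers and 1 of 9 interneuron markers called lower. Desipramine in labelled-WT mice had 2 septal or hypothalamic markers and 1 cortical marker called higher and 1 choroid plexus marker called lower in the authors' deposited table. Cuffdiff called none of the astrocyte, oligodendrocyte, microglia and endothelial markers in any comparison, where 0.202% to 1.44% of all genes were called. Per comparison, 0 to 3 of these markers had an unadjusted p under 0.05 in the authors' deposited tables. The part of any of these cells in the changes was not tested.

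Pvalb, the calcium buffer of fast-spiking interneurons, was called in the 3 comparisons where Syt2 was. Pvalb stood at 8.31 FPKM with injury and desipramine, 17.9 FPKM with injury and saline and 6.25 FPKM in naive mice of the labelled-KO groups, against 15.5, 15.1 and 36.1 FPKM for the same 3 conditions in the labelled-WT groups. Injury in labelled-KO mice gave 17.7 FPKM in the labelled-KO saline group, against 6.17 FPKM in labelled-KO naive mice (log2 fold change 1.52 ± 0.36, q = 0.0128) in the authors' deposited table. Desipramine in labelled-KO mice gave 8.33 FPKM in the labelled-KO desipramine group, against 17.98 FPKM in the labelled-KO saline group (log2 fold change -1.11 ± 0.33, q = 0.00739) in the authors' deposited table. The labels after desipramine gave 8.41 FPKM in the labelled-KO desipramine group, against 15.7 FPKM in the labelled-WT desipramine group (log2 fold change -0.90 ± 0.28, q = 0.00818) in the authors' deposited table. In naive mice Pvalb also differed, with 6.13 FPKM in labelled-KO naive mice, against 35.3 FPKM in labelled-WT naive mice (log2 fold change -2.52 ± 0.52, q = 0.00761) in the authors' deposited table, whereas Syt2 had a log2 fold change of -0.72 ± 0.42 (q = 0.117) and Vamp1 a log2 fold change of -0.63 ± 0.39 (q = 0.240) in the authors' deposited table. Over the 9 interneuron markers the summed level was 817, 771 and 774 FPKM in the desipramine, saline and naive groups labelled KO, against 827, 741 and 1343 FPKM in those labelled WT. Most of that came from Sst, Npy and Gad2, at 448, 145 and 159 FPKM in the labelled-KO desipramine group. The mean of log2(FPKM + 1) over the 9 was 4.82, 5.07 and 4.66 in the same groups labelled KO, against 5.08, 4.97 and 5.32 in those labelled WT. Pvalb also fell with injury in labelled-WT mice, with 14.99 FPKM in the labelled-WT saline group, against 35.9 FPKM in labelled-WT naive mice (log2 fold change -1.26 ± 0.50, q = 0.00766) in the authors' deposited table, where neither Syt2 nor Vamp1 was called. What Pvalb-bearing cells contribute to Syt2 and Vamp1 was not tested.

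**Figure D5:**
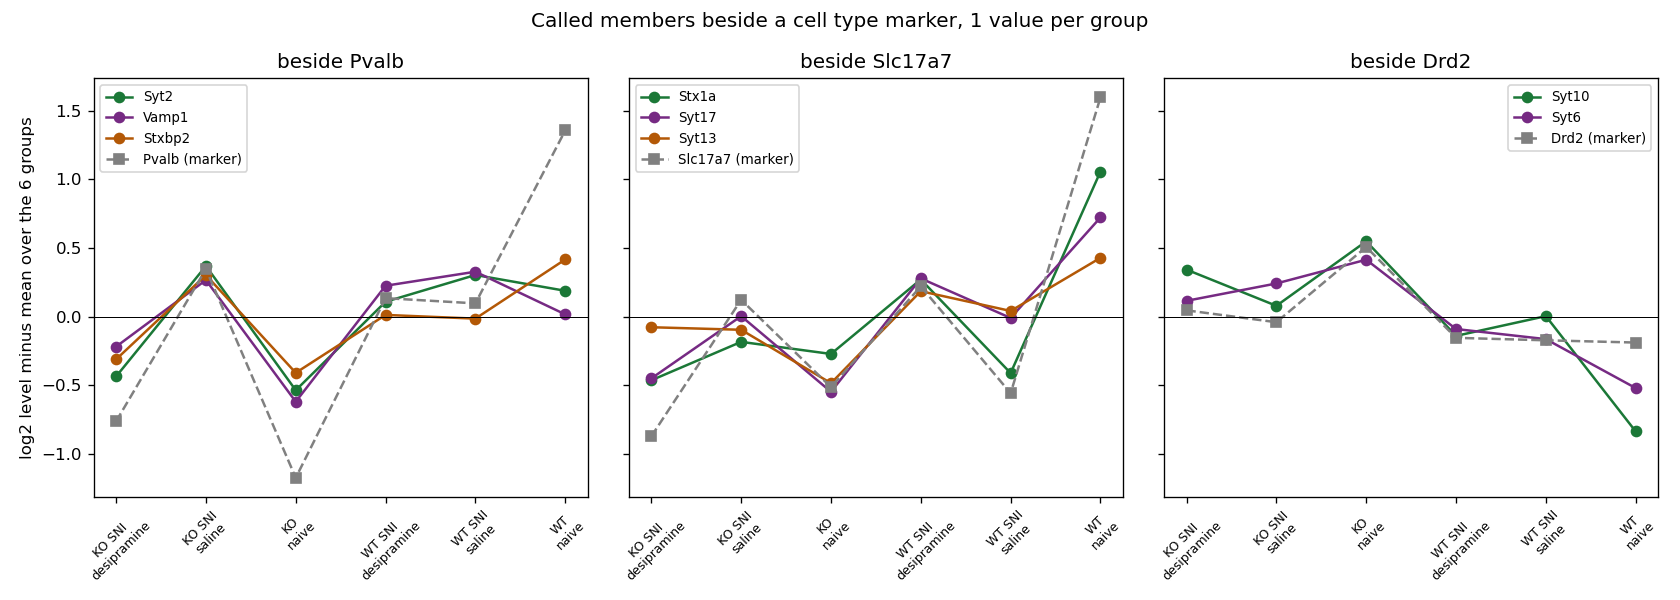
Log2 level minus the gene's mean over the 6 groups, for called members and 1 marker each of interneurons (Pvalb), cortical neurons (Slc17a7) and medium spiny neurons (Drd2), placed together after their values were seen; lines only join the points of a gene. Syt2, Vamp1, Stxbp2 and Pvalb are low in labelled-KO naive and desipramine groups, Stx1a, Syt17, Syt13 and Slc17a7 peak in labelled-WT naive mice, and Syt10, Syt6 and Drd2 are highest in labelled-KO naive mice. Over the labelled-WT groups Drd2 stays between -0.19 and -0.15, while Syt10 and Syt6 drop to -0.84 and -0.52 in labelled-WT naive mice. The markers drawn do not stand for their whole lists. For labelled KO over labelled WT in naive mice, 12 of 13 medium spiny neuron markers are higher and 1, Ppp1r1b, lower. With desipramine in labelled-KO mice, 3 of 9 interneuron markers rise and 6 fall.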

How the data were processed

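Nucleus accumbens RNA of 18 samples was made into TruSeq libraries and sequenced on an Illumina HiSeq instrument, per the labels' protocols. Bowtie2 2.1.0, TopHat2 2.0.9, Cuffdiff 2.1.1 and the builds mm9 and NCBIM37 are named in the submitters' processing notes (annotation release and options: not given in the sources used here). Deposited were 7 tables of 37980 genes, made by the authors. FPKM values are 1 per gene and group, normalized within each table by the authors' Cuffdiff run, per the file headers. The deposited log2 fold change is the second group over the first, which in every table is the group named first here over its comparator. The test statistic is a score the authors' Cuffdiff run gives. The deposited p-value has a minimum of 5.00e-05, and the deposited q-value equals its Benjamini-Hochberg adjustment. No table holds values per sample, so limma, planned for that case, was not used.

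Standard errors are the log2 fold change over the statistic, left out where this is not above 0, where the fold change differs from the FPKM ratio by over 0.01, or where a deposited p above 0.05 goes with a normal p of the statistic below 1e-04. The differences between responses used genes with at least 1 FPKM in all 4 groups. The code was tested on simulated normal errors, where difference over error has an SD of 1. The spread in these data corresponded to 0.357 for desipramine and 0.505 for injury, so the simulation does not show how the test behaves here. Table factors lay between 0.98 and 1.014 (13742 genes). Locus starts in the files count from 0, checked against GENCODE gene lengths, and are printed counting from 1. Promoters come from RefSeq. Analyses used Python 3.11.15, pandas 2.3.3, numpy 2.4.6 and scipy 1.17.1.

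The members and all gene lists were chosen with earlier results of these data known. Named members are those called, a fixed set of neuronal release genes, the 5 highest and 2 lowest per family, and the 3 highest and lowest fold changes per comparison; not all are named in the text, and 2 members are not reported here individually. Of the lists of other release genes, called members were named, and cell type markers are mostly given as counts. Stx8 and Vamp8 are also discussed together after their values were seen. Nothing says that the samples are separate animals beyond the design text's term biological replicates, so the p-values reach no further than these samples. They rest on Cuffdiff's own estimate of error, which could not be checked without values per sample.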

Additional observations from a re-analysis of the deposited data

How the results depend on the processing

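The median fold changes stayed within the error in all 21 recomputations under the alternatives tried, as did 667 recomputed fold changes of single members. In 1 case the value moved, Syt15 between the labels after desipramine, at a log2 fold change of 0.15 on the log2(FPKM + 1) scale. The median standard error of the members, 0.22 to 0.51 per comparison, was larger than the median fold changes themselves. Staying within so wide an error was nearly certain beforehand and does not show that the medians are robust. The counts of called members moved more. With q at or below 0.01, naive mice had 1 call instead of 5, injury in labelled-KO mice 0 instead of 3, desipramine in labelled-KO mice 1 instead of 2 and the labels after desipramine 4 instead of 5, without Syt10. With a normal p from the deposited statistic, and again with that p after centring, naive mice had 0, the labels after desipramine 0 instead of 5, injury in labelled-WT mice 0 instead of 1, injury in labelled-KO mice 1 and desipramine in labelled-KO mice 0. With q at or below 0.1, or with p adjusted over all 7 tables together, desipramine in labelled-WT mice had 1 call, Stx1a, instead of 0. At q at or below 0.1, desipramine in labelled-KO mice had 3, with Vamp1 added. The cause of these shifts was not tested. No paired analysis was possible because the tables hold 1 value per group and none per sample, which also prevented leaving out a replicate. Depth per sample is unknown, which limits what can be said of genes under 1 FPKM, such as Syt8, Syt15 and Stx11.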
